A study of Rattus norvegicus with 12 samples.

Results

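Fatty acid oxidation was described here through 36 genes, which encode the enzymes of mitochondrial and peroxisomal β-oxidation, the proteins that bring fatty acids to them and the regulators that set their expression. Each member was read from 1 probe set, the one with the highest mean over the 12 arrays among those annotated to that gene alone. Such a probe set was found for 35 of the 36 members, out of 14218 genes with one on the array. Acaa1a, a peroxisomal thiolase, was named only on a probe set shared with other genes and has no value here. Of the 35 members 33 passed the filter on low signal and were tested. Ppara and Acox3 were too dim.

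The arrays measured renal cortex of male rats, 1 array for each of 12 kidney grafts, all carried by wild-type recipients. In 6 grafts the kidney was wild type, and in 6 it was deficient in MRP2 (ABCC2-/-), the apical efflux pump for organic anions of proximal tubule cells, which the gene Abcc2 encodes. The recipient had a working pump in both groups. The origin of blood and immune cells in the graft was not measured. Strain, age and time after transplantation are not given in the sources used here, nor is it stated whether each graft came from its own donor, and p-values cover the spread among these 12 arrays only. The comparison was of graft genotype in wild-type recipients. It cannot separate loss of the pump in the graft from other differences between the donors.

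The cortex of the kidney, and its proximal tubule above all, draws most of its ATP from fatty acids. Long-chain acids are bound to coenzyme A, carried into mitochondria as carnitine esters and shortened by a repeated cycle of dehydrogenation, hydration, dehydrogenation and thiolysis. Peroxisomes shorten very long, branched and bile-acid-type chains by a parallel set of enzymes whose first step makes hydrogen peroxide, and hand the products on. The nuclear receptor PPARα and the coactivator PGC-1α raise the expression of both sets.

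Signals are the deposited linear values, which have no absolute unit and compare arrays but not genes. A difference is the mean log2 signal of the deficient arrays less that of the wild-type arrays, SE is its standard error in limma, and adjusted p means Benjamini-Hochberg adjustment over all 18625 tested probe sets. Abcc2, the check of the labels, was at 0.899 ± 0.0746 (SD, n = 6) in the wild-type arrays and at 0.141 ± 0.0594 (SD, n = 6) in the deficient ones, without overlap and with a limma adjusted p of 8.35e-06.

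The arrays also differed in ways that touch every value below. All 24 probe sets for the poly-A control RNAs, bacterial transcripts added before labelling, were higher in each deficient array than in each wild-type array, with a median ratio of 6.55, while 0 of 18 hybridisation control probe sets separated the genotypes. The labelling and the genotype therefore cannot be told apart. With genotype means removed, the main component of the tested probe sets, which held 33.0% of their variance, split each genotype 3 against 3. Array set 1 held wild-type replicates 1, 6 and 9 and deficient replicates 5, 9 and 11, and array set 2 held wild-type replicates 4, 7 and 8 and deficient replicates 3, 10 and 14. These sets were drawn from the expression values, not from labels. They coincide with the first 3 and the last 3 arrays of each genotype in the order of the sample list. The ratio of the 3′ to the 5′ probe sets of Gapdh, a sign of RNA or labelling quality, was 1.28 to 1.36 in the deficient arrays of set 2 and 1.64 to 1.93 in all other arrays.

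No member of the pathway passed the threshold. In limma 0 of 33 had an adjusted p under 0.05, against 4 of all 18625 probe sets (0.0215%), and the lowest adjusted p of a member was 0.606. At an unadjusted p under 0.05, Acox2 was higher in deficient grafts, 1 of 33 members where 3.35% of all probe sets were, but this gene passed the filter only through its signal in the deficient grafts, so the count supports nothing. Ppargc1a, Pex11a and Acadvl were lower, 3 of 33 members where 4.63% were. The 6 deficient arrays lay clear of the 6 wild-type arrays in 0 members, higher or lower, against 0.161% and 0.274% of all probe sets. The signs were split, with 16 positive and 17 negative differences and a median of -0.014, beside -0.023 over all tested probe sets. The median SE of a member was 0.12 on the log2 scale, which sets the precision that 6 arrays against 6 gave.

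**Figure D1:**
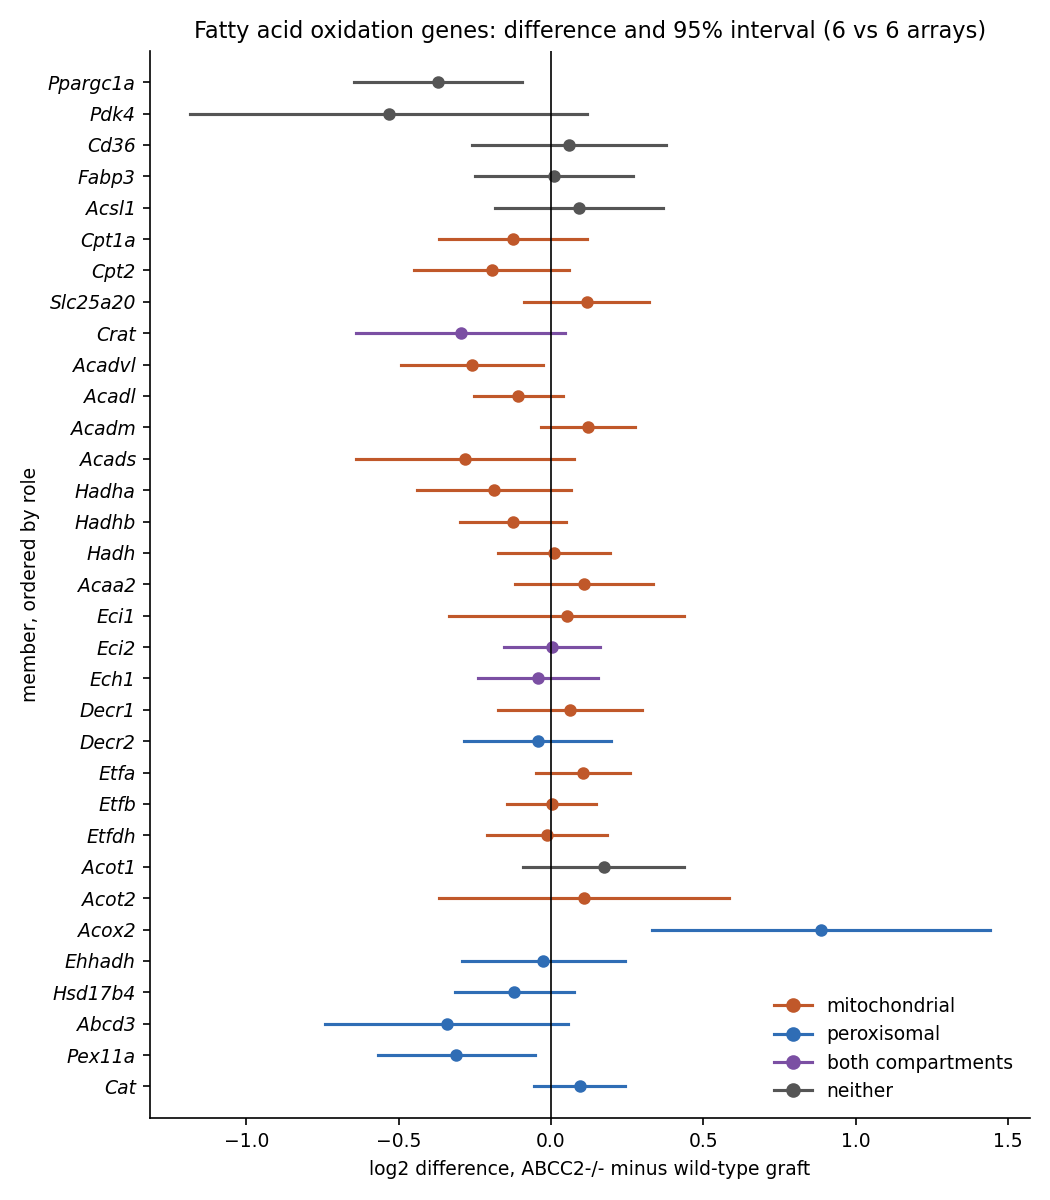
Log2 difference (ABCC2-/- minus wild-type graft, horizontal axis) of the 33 tested members, ordered by role, with the 95% confidence interval of the limma fit as a bar and the compartment as colour. The intervals of Ppargc1a, Acadvl, Pex11a and Acox2 do not cross 0, and Acox2 lies farthest to the right at 0.89.

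Of the regulators, Ppargc1a, which encodes PGC-1α, had the lowest p among members with lower signal. Its signal was 3.76 to 5.26 in wild-type grafts, with a median of 4.34, and 2.62 to 4.33 in deficient grafts, with a median of 3.42. The 3 deficient arrays of set 2 lay below every wild-type array, and the other 3 lay among them. The difference was -0.37 (SE 0.13, limma unadjusted p = 0.0115, adjusted p = 0.606), with an unadjusted exact two-sided permutation p of 0.0390. Its other probe sets had differences of -0.55 (SE 0.20) and -0.065 (SE 0.12), so the sign was shared and the size was not. The difference was -0.18 in set 1, -0.56 in set 2, and -0.17 over all arrays with the Gapdh ratio as a covariate.

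Pdk4, the kinase that shuts pyruvate dehydrogenase and so spares glucose when fatty acids are burnt, was the member with the widest scatter. Wild-type signals ran from 1.37 to 2.11, with a median of 1.74, and deficient signals from 0.613 to 3.56, with a median of 1.03. Deficient replicate 10 was above every wild-type array and 4 deficient arrays were below all of them. The difference was -0.53 (SE 0.31, adjusted p = 0.635), and without deficient replicate 10 it was -0.85, with a limma unadjusted p of 0.000667 and an adjusted p of 0.757. That array was picked after its value was seen, so this p is a description. With any other single array left out the difference was -0.34 to -0.61, with limma unadjusted p of 0.0792 to 0.260. A second, dimmer probe set of Pdk4 had -0.021 (SE 0.23). Ppara, the receptor gene, had its signal at or under the floor in 7 of 12 arrays, so no level can be compared.

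Uptake and activation were represented by the fatty acid translocase gene Cd36, the heart-type binding protein gene Fabp3 and the acyl-CoA synthetase gene Acsl1. All had small positive differences, 0.059 (SE 0.15), 0.010 (SE 0.12) and 0.092 (SE 0.13), with adjusted p of 0.802 or more. Acsl1 ranged from 10.3 to 15.4 (median 12.1) in wild-type and from 10.7 to 17.4 (median 11.8) in deficient grafts, so the groups lay on top of each other. A second probe set of Acsl1 had the opposite sign, -0.074 (SE 0.15).

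In the carnitine shuttle, Cpt1a attaches carnitine at the outer membrane, Slc25a20 exchanges the ester across the inner one and Cpt2 takes the carnitine off again. Their differences were -0.12 (SE 0.12), 0.12 (SE 0.10) and -0.19 (SE 0.12). Crat, the carnitine acetyltransferase of mitochondria and peroxisomes, had a signal of 4.43 to 6.34 (median 5.18) in wild-type and 3.07 to 5.72 (median 4.37) in deficient grafts. Its lowest 3 values were the deficient arrays of set 2, as for Ppargc1a. The difference was -0.30 (SE 0.16, adjusted p = 0.628). It was -0.13 in set 1 and -0.46 in set 2.

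The mitochondrial cycle opens with acyl-CoA dehydrogenases matched to chain length. Acadvl, for very long chains, had a signal of 5.62 to 6.54 in wild-type grafts, with a median of 6.11, and 3.89 to 6.02 in deficient grafts, with a median of 5.43. Again the deficient arrays of set 2 lay below all wild-type arrays. The difference was -0.26 (SE 0.11, limma unadjusted p = 0.0308, adjusted p = 0.614, exact permutation p = 0.0433, unadjusted), and it was -0.094 in set 1, -0.42 in set 2 and -0.10 over all arrays with the Gapdh ratio as a covariate. The other dehydrogenases did not line up by chain length. Acadl had -0.11 (SE 0.07), the medium-chain gene Acadm 0.12 (SE 0.07) and the short-chain gene Acads -0.28 (SE 0.17).

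Hadha and Hadhb encode the subunits of the trifunctional protein, which carries out the remaining steps on long chains, and had -0.19 (SE 0.12) and -0.12 (SE 0.08). Hadh and Acaa2, the dehydrogenase and thiolase for shorter chains, had 0.010 (SE 0.09) and 0.11 (SE 0.11). The 8 members of this cycle thus held 3 positive and 5 negative differences, with adjusted p between 0.614 and 0.974. Bonds that the cycle cannot take as they come are moved or reduced by auxiliary enzymes. Among these, Eci1 had 0.052 (SE 0.18), Eci2 0.0027 (SE 0.07), Ech1 -0.044 (SE 0.09) and the peroxisomal reductase gene Decr2 -0.043 (SE 0.11). Decr1, the mitochondrial reductase, ranged from 14.2 to 19.8 (median 18.7) in wild-type and from 15.1 to 22.1 (median 18.7) in deficient grafts, with a difference of 0.063 (SE 0.11, adjusted p = 0.843).

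Electrons from the dehydrogenases reach the respiratory chain through the electron transfer flavoprotein. Its subunit gene Etfa had a signal of 17.9 to 20.3 (median 18.9) in wild-type and 19.0 to 23.8 (median 19.97) in deficient grafts, with 3 deficient arrays above all wild-type arrays and a difference of 0.10 (SE 0.07, adjusted p = 0.651). Etfb and the oxidoreductase gene Etfdh had 0.0022 (SE 0.07) and -0.014 (SE 0.09). The 95% intervals of these 3 genes lay between -0.21 and 0.26, and their median SE of 0.073 was the smallest of the 8 roles.

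Thioesterases release free fatty acids from coenzyme A, Acot1 in the cytosol and Acot2 in mitochondria. Acot1 had a signal of 9.19 to 15.4 (median 10.6) in wild-type and 10.1 to 15.1 (median 13.0) in deficient grafts. The difference was 0.17 (SE 0.13, adjusted p = 0.658), and all deficient arrays lay within the wild-type range. Acot2 had 0.11 (SE 0.22), and its other probe sets had 0.026 (SE 0.19) and -0.16 (SE 0.09). The genes are close paralogs, and whether their probes cross-react was not tested.

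Of the peroxisomal members, Acox2, the oxidase for branched chains and bile acid intermediates, had the highest difference of the 33. It was dim. Its mean log2 signal of -2.49 was just above the filter limit of -2.53 and the wild-type mean of -2.94 was under it, so it was tested only because of the group in which it was higher, and its values are a description. Its signal was 0.0754 to 0.217 (median 0.144) in wild-type and 0.197 to 0.294 (median 0.237) in deficient grafts. In 4 of 6 deficient grafts it was above every wild-type graft, and the other 2 overlapped the wild-type range. The difference was 0.89 (SE 0.26), a fold of 1.85, with a limma adjusted p of 0.606. In array set 1 it was 1.02 and in set 2 it was 0.75. Acox2 has a single probe set. Acox3, its relative for branched chains, missed the filter, with wild-type signals of 0.0414 to 0.153 and deficient signals of 0.0718 to 0.175.

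Pex11a, a membrane protein that drives division of peroxisomes, gave opposite readings from its probe sets. The brighter one had a signal of 3.54 to 5.49 (median 3.97) in wild-type and 2.82 to 4.18 (median 3.36) in deficient grafts, a difference of -0.31 (SE 0.12, limma unadjusted p = 0.0211, adjusted p = 0.606). The dimmer one had 0.196 to 0.348 in wild-type and 0.264 to 0.715 in deficient grafts, a difference of 0.55 (SE 0.23, limma unadjusted p = 0.0271, adjusted p = 0.612). No direction can therefore be given for Pex11a. Abcd3, the peroxisomal half-transporter for acyl-CoA, had -0.34 (SE 0.19), the multifunctional enzyme genes Ehhadh and Hsd17b4 had -0.025 (SE 0.13) and -0.12 (SE 0.09), and catalase (Cat), which breaks down the hydrogen peroxide, had 0.094 (SE 0.07).

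**Figure D2:**
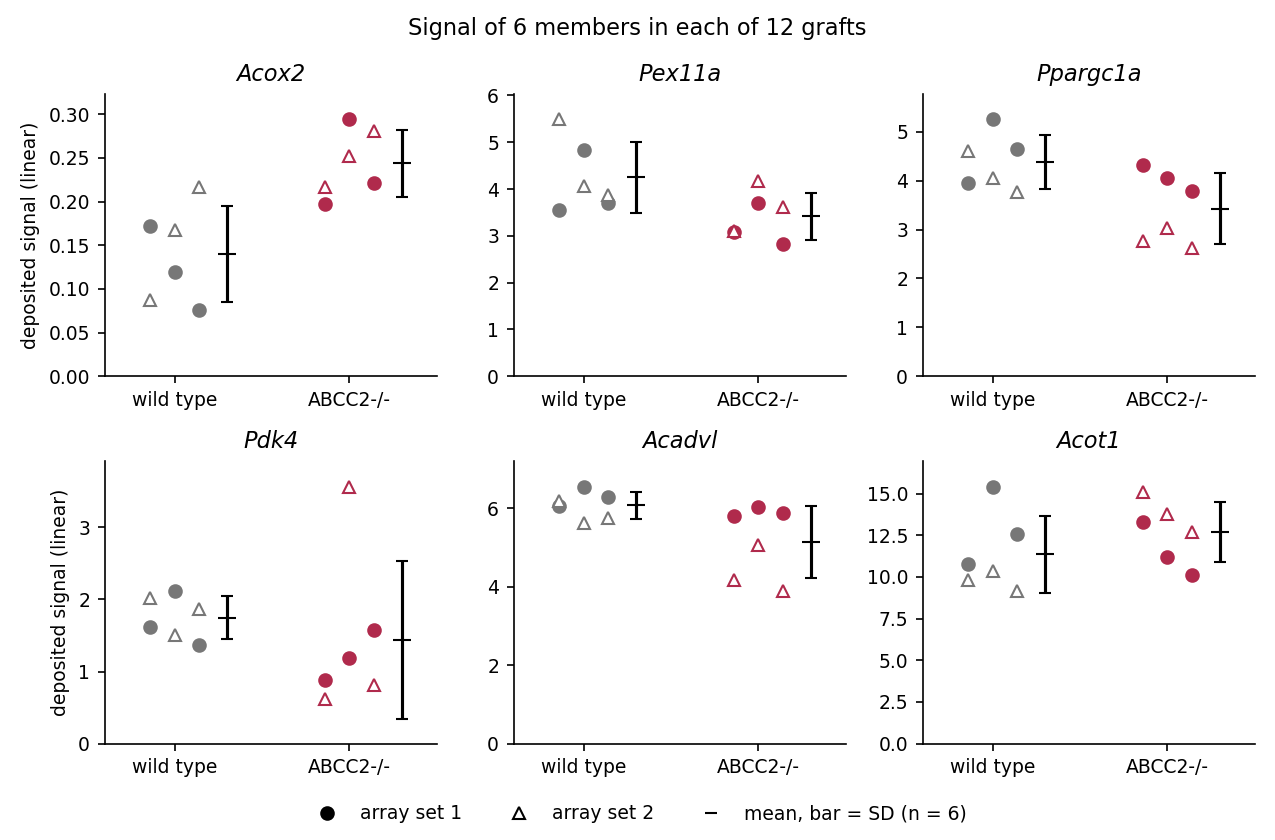
Deposited linear signal (vertical axis) of Acox2, Pex11a, Ppargc1a, Pdk4, Acadvl and Acot1 in each of the 12 grafts by genotype, with filled circles for array set 1, open triangles for array set 2, and the mean with SD as a bar (n = 6). For Ppargc1a and Acadvl the 3 deficient arrays of set 2 are the lowest of all, and for Pdk4 a single deficient array, at 3.56, is the highest.

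The compartments did not part by genotype. Among 17 mitochondrial members 9 differences were positive and 8 negative, with a median of 0.0022 and a range of -0.28 to 0.12. Among the 7 tested peroxisomal members 2 were positive and 5 negative, with a median of -0.043 and a range of -0.34 to 0.89. Within each array the mean log2 signal of the mitochondrial members, less that of the peroxisomal ones and both relative to the 12-array mean, was 0.0277 ± 0.121 (SD, n = 6) in wild-type and -0.0277 ± 0.144 (SD, n = 6) in deficient grafts. The difference of -0.055 was smaller than the spread within a genotype. It rested on Acox2, without which it was 0.089. Members of the mitochondrial group moved together only weakly over the 12 arrays once genotype means were removed. The median pairwise Pearson r was 0.22 within the mitochondrial group (100 of 136 pairs positive), -0.0025 within the peroxisomal group (10 of 21) and 0.036 between them (61 of 119). All pairs share the same arrays, and these values are a description.

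**Figure D3:**
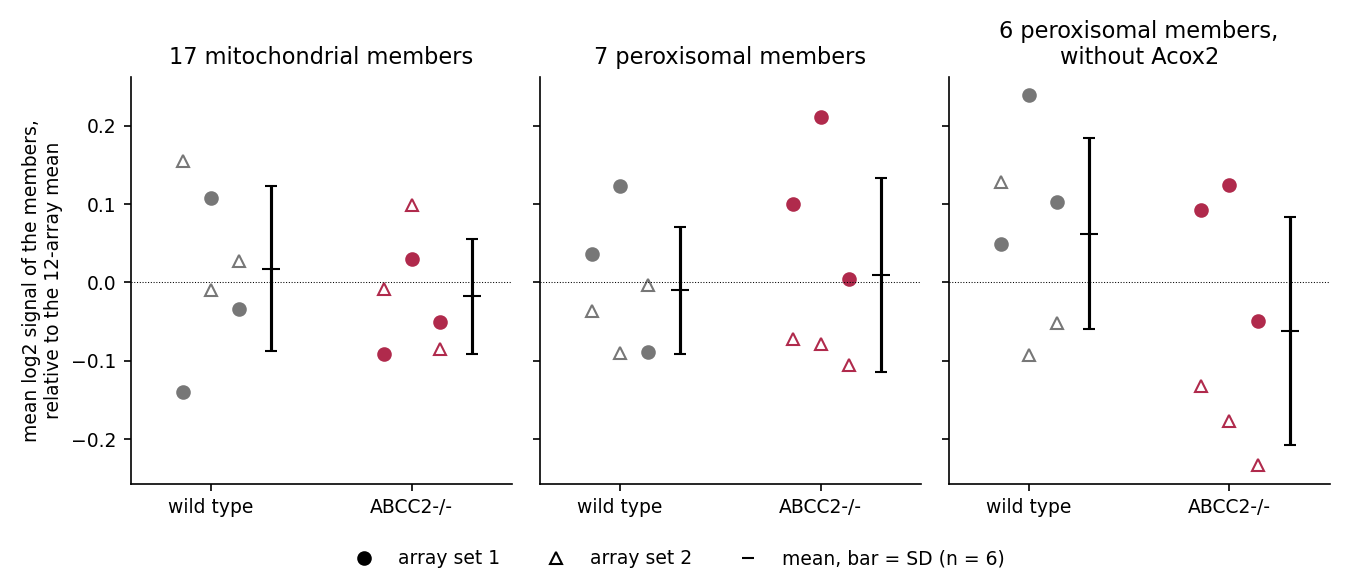
Mean log2 signal per array relative to the 12-array mean (vertical axis) of the 17 mitochondrial members, the 7 tested peroxisomal members, and the latter without Acox2, by genotype, with circles for array set 1, triangles for array set 2 and the mean with SD as a bar (n = 6). Genotypes overlap in each panel, and without Acox2 the deficient arrays of set 2 are the lowest.

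Several members were ordered by array set. Crat, Acads, Hadha, Decr2, Hsd17b4 and Abcd3 were lower in every array of set 2 than in every array of set 1 in both genotypes, 6 of 33 members where 11.5% of all tested probe sets were. Eci1 and Acot2 were higher, 2 of 33 where 6.60% were. Other tested probe sets of Eci1, Acot2 and Hadha did not share the order in both genotypes. Mean log2 of set 2 less set 1, for wild-type and deficient arrays in turn, was -0.54 and 1.99 for that of Eci1. It was -0.53 and 0.52, and -0.094 and 0.098, for those of Acot2, and 0.23 and 0.58 for that of Hadha. Abcd3, for example, had 7.18 to 7.99 in the wild-type arrays of set 1 and 4.42 to 6.69 in those of set 2, and 5.97 to 7.08 against 3.48 to 4.01 in the deficient arrays. Since the sets were drawn from all probe sets, these counts are a description. Within each array the mitochondrial less the peroxisomal mean, Acox2 left out, was -0.19 to -0.0023 in set 1 and 0.027 to 0.27 in set 2. With Acox2 kept it was -0.19 to 0.054 in set 1 and 0.021 to 0.19 in set 2, so the sets overlapped. Acox2 was left out after the data were seen.

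The genotype comparison was therefore repeated within each set, 3 arrays against 3. In set 1 limma called 0 members at an adjusted p under 0.05, where 4 probe sets in all (0.0215%) passed. At an unadjusted p under 0.05, 2 were higher and 4 lower, where 2.65% and 8.88% of probe sets were. Without overlap 1 was higher and 5 lower, where 4.68% and 13.2% were. Acox2, tested only because of its signal in the deficient grafts, was 1 of the 2 higher and the 1 without overlap. Those higher counts therefore support nothing. There were 6 members in set 2 with an adjusted p under 0.05. The sets were drawn from these same values, which can narrow the spread within them. The p-values of the fits by set and with set as a block may therefore be too small and are given as a description. Acot1 (0.50, SE 0.09, adjusted p = 0.00799) and Acot2 (0.37, SE 0.09, adjusted p = 0.0383) were higher, 2 members where 3.68% of probe sets were. Ppargc1a (-0.56, SE 0.10, adjusted p = 0.0109), Crat (-0.46, SE 0.09, adjusted p = 0.0125), Acadvl (-0.42, SE 0.10, adjusted p = 0.0343) and Hadha (-0.35, SE 0.09, adjusted p = 0.0466) were lower, 4 members where 2.71% were. Other tested probe sets did not all bear these calls out. In set 2 those of Acot2 had 0.55 and -0.066, those of Ppargc1a -0.49 and -0.010, and that of Hadha 0.063. At an unadjusted p under 0.05 set 2 had 5 members higher and 8 lower, where 12.8% and 11.7% of probe sets were, and 5 higher and 9 lower without overlap, where 15.2% and 14.4% were. The Gapdh ratio separated the genotypes in this set, at 1.64 to 1.88 in wild-type and 1.28 to 1.36 in deficient arrays, and its part in these calls was not tested. In set 1 the differences were -0.15 for both Acot1 and Acot2, -0.18 for Ppargc1a, -0.13 for Crat, -0.094 for Acadvl and -0.024 for Hadha. Whether the difference between genotypes changes from set to set was not tested. With set as a block over all 12 arrays 0 members passed, against 112 probe sets (0.601%), and at an unadjusted p under 0.05 there were 1 higher and 8 lower members, where 7.40% and 12.1% of probe sets were. With the Gapdh ratio as a covariate there were 1 higher and 1 lower, where 1.39% and 2.21% were. Without the 3 deficient arrays of set 2, a fit unbalanced by set, there were 1 higher and 4 lower, where 1.40% and 2.76% were. Without overlap there were 0 higher and 1 lower, where 0.848% and 1.51% were. In the fits with set as a block, with the Gapdh covariate and without those arrays, the higher member was Acox2. These higher counts support nothing either.

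**Figure D4:**
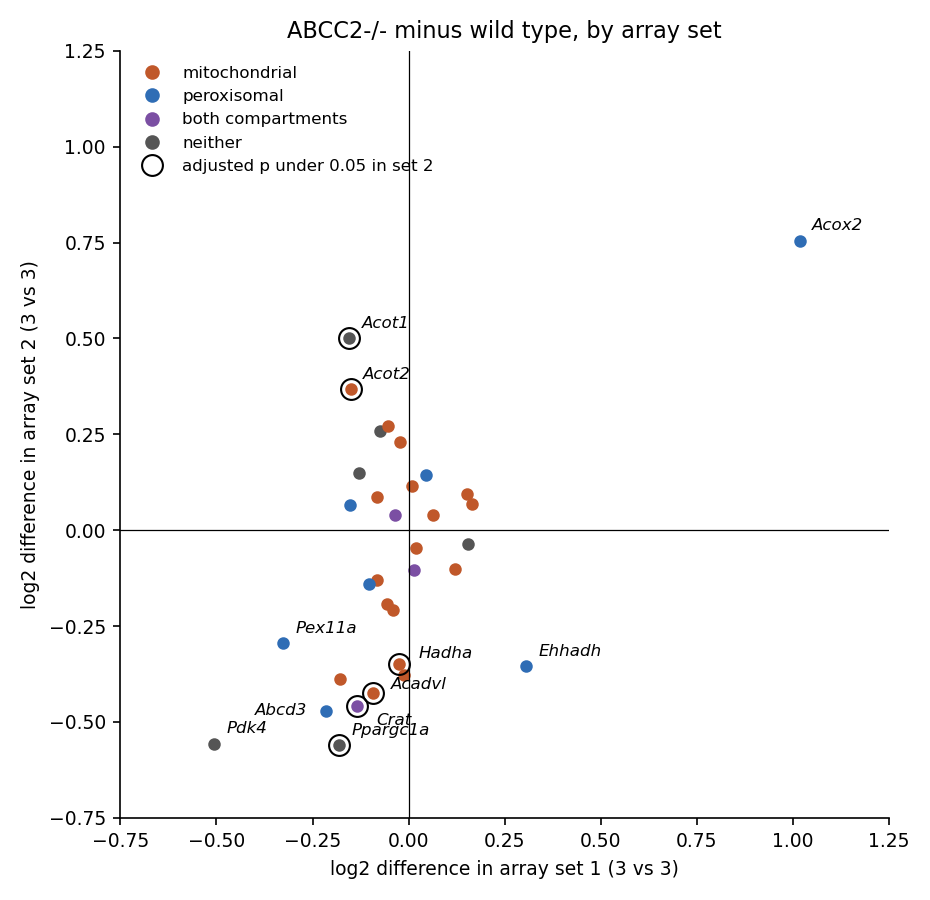
Log2 difference (ABCC2-/- minus wild type) of the 33 tested members in array set 1 (horizontal axis) and array set 2 (vertical axis), 3 against 3 arrays each, with compartment as colour and a ring around the 6 members with an adjusted p under 0.05 in set 2. Acox2 is positive in both sets, Acot1 and Acot2 lie above 0 in set 2 and below 0 in set 1, and Ehhadh lies opposite to them.

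Promoters are shown for Acadvl, the enzyme with the lowest unadjusted p among those with lower signal, and for Acox2, which had the highest difference. Ppargc1a and Pex11a, which are not enzymes, had a lower limma unadjusted p than Acadvl (0.0115 and 0.0211). The choice was made after the values were seen, and no link between a match and the signal was tested. The p of Acox2 supports nothing, since it was tested only because of its signal in the deficient grafts. Sequences are those of RefSeq for the rat assembly GRCr8, 250 bases before and 50 after the annotated start, which were available for 32 of the 36 members. PPARα binds with its partner RXR to a direct repeat of AGGTCA with 1 base between the copies, searched as AGGTCANAGGTCA on both strands. The exact repeat was in 0 of 32 member promoters and in 18 of 33469 promoters in all (0.0538%). With 1 mismatch allowed it was in 1 member, Acadvl, and in 0.439% of all promoters. The match, at bases 234 to 246 of the window on the gene's strand, is in capitals, and the Acox2 window holds none. Acadvl lies at chr10:55236656-55236955 on the minus strand and Acox2 at chr15:19090705-19091004 on the plus strand. A match is a run of letters and no measure of binding.
Acadvl: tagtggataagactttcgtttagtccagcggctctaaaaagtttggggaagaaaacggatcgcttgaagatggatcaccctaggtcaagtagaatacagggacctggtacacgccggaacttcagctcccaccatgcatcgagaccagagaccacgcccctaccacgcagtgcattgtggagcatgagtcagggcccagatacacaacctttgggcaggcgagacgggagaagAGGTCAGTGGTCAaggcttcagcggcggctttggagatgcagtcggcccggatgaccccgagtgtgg
Acox2: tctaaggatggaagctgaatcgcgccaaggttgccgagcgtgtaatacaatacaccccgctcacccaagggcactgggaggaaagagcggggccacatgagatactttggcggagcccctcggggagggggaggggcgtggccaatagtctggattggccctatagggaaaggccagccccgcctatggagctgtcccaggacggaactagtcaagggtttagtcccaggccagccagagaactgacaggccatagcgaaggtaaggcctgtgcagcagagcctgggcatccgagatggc

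No further gene of the pathway passed the threshold either. Of 145 further genes of fatty acid handling 127 had a probe set and 114 were tested, and limma called 0 of them at an adjusted p under 0.05. At an unadjusted p under 0.05, 3 were higher and 9 lower, where 3.35% and 4.63% of all probe sets were, and the median difference was -0.063. Among other genes of acyl-CoA oxidation (20 tested) Ivd, of leucine breakdown, had 0.28 (SE 0.11) and Acad10 -0.46 (SE 0.18). In uptake and activation (22 tested) the fatty acid transporter gene Slc27a1 had -0.31 (SE 0.13) and the synthetase gene Acsf2 -0.20 (SE 0.10). In peroxisomal oxidation and its conjugating enzymes (22 tested) the thioesterase gene Acot12 had -0.42 (SE 0.15) and Baat, which joins bile acids to amino acids, -0.38 (SE 0.16).

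Peroxisome biogenesis (16 tested) held Pex26, the membrane anchor of the import machinery, at -0.39 (SE 0.17) and the membrane protein gene Pxmp4 at -0.25 (SE 0.13). Among PPAR targets and genes of ketone body synthesis (15 tested) the fatty acid hydroxylase gene Cyp4a8 had 0.25 (SE 0.09) and Txnip -0.31 (SE 0.11). Among other regulators (19 tested) the retinoid receptor gene Rxrb had -0.60 (SE 0.23) and Prkaa2, a catalytic subunit of AMP-activated kinase, 0.41 (SE 0.19). The adjusted p of these 12 genes lay between 0.606 and 0.628.

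Markers of nephron segments and of other cells had 0 members past an adjusted p of 0.05 in limma. At an unadjusted p under 0.05, their counts stand beside 4.63% of all probe sets lower and 3.35% higher. Of 20 proximal tubule markers with a probe set 19 were tested, and their summed signal was 765 to 993 in wild-type and 787 to 888 in deficient arrays. Their median difference was -0.023, with 2 lower at an unadjusted p under 0.05, Slc5a2 (-0.38, SE 0.11) and Cubn (-0.22, SE 0.10). Distal tubule and collecting duct markers (10 tested, 3 lower) had a median of -0.14 and sums of 86.9 to 119.6 in wild-type and 91.1 to 113.7 in deficient arrays. The 3 were Slc4a1, Slc26a4 and Slc12a3, at -0.41, -0.42 and -0.40. Podocyte markers (5 tested, 1 lower, Nphs1) had a median of -0.15 and sums of 16.2 to 21.2 and 14.4 to 20.7. Blood markers (4 tested, 1 lower, Slc4a1 again) had a median of -0.30 and sums of 20.9 to 54.6 and 11.5 to 47.2. Thick ascending limb markers (6 tested, 0 lower and 0 higher) had a median of 0.026 and sums of 119.2 to 136.4 and 114.5 to 135.5. Their part in the values of the members was not tested. Fat and muscle burn fatty acids too. Of 5 adipocyte markers 2 were tested, with sums of 1.29 to 2.33 in wild-type and 1.22 to 2.47 in deficient arrays, and 0 of 8 muscle markers passed the filter. Endothelial markers, which matter for Cd36, summed to 23.1 to 27.8 and 22.4 to 25.8 (7 tested, 0 at an unadjusted p under 0.05), and myeloid markers to 28.1 to 36.5 and 31.0 to 42.4 (8 tested, 1 higher, Mrc1, at 0.38, SE 0.15). In whole cortex, fewer cells of a type and less RNA per cell cannot be told apart.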

How the data were processed

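Biotin-labelled RNA was measured on Affymetrix 3′ arrays, per the labels' protocols. The deposited values are linear intensity values, 1 per probe set and array. Per the submitters' processing notes the software was MAS5 and GCOS, with no version given. Each array appeared to have been divided by a constant of its own (103.8 to 197.1), which was inferred here from the steps between its low values. The lowest values stood at 0.01. Dim probe sets are therefore compared with less resolution.

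From the 31099 probe sets 57 controls were left out. Values under the pooled 20th percentile (0.0694) were raised to it, log2 of the deposited values was taken, and the 18625 probe sets with a mean log2 at or above the 40th percentile were tested with limma 3.58.1 in R 4.3.3 (lmFit, eBayes with trend), genotype as sole factor. The fit was tested on simulated data. Permutation tests were exact and two-sided, used all 924 assignments of the arrays, and are unadjusted for the number of members. Genes were named through the platform annotation.

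Members with an unadjusted p under 0.05 and the lowest p of each role were given in full, and the 2 lowest p of each list of other pathway genes. Pdk4, the cell type markers named, the members called in array set 2 and the members ordered by array set were described further after their values were seen. The promoters shown were also chosen after the values were seen. The members and lists were chosen with earlier results of these data known. Alternatives changed the floor, filter, normalization, variance model, weights, covariates, probe sets and arrays. Protein sequences were not analysed here.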

Additional observations from a re-analysis of the deposited data

Results flagged for a closer look

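Among the 70 groups of 6 arrays checked for a single array apart from the rest, 4 had one by Dixon's test, and chance gives about 1 in 20. Ppara was highest among wild-type grafts in replicate 6, at a signal of 0.186, where most arrays were at the floor. Hadhb was lowest among deficient grafts in replicate 14, at 21.2. Hadh was lowest among wild-type grafts in replicate 1, at 18.0. Etfb was highest among wild-type grafts in replicate 4, at 28.2.

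The poly-A control probe sets, which no comparison of genes used, were higher in every deficient than in every wild-type array in 24 of 24 cases, with ratios of 3.98 to 8.72. The hybridisation controls had ratios of 0.919 to 1.17. The part of this difference in the values of the members was not tested.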

How the results depend on the processing

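The 33 tested members were followed through 17 other settings and 12 fits that left out 1 array. In array set 2 alone 6 of them had an adjusted p under 0.05, and in none of the other fits did any. The p-values by set may be too small, since the sets were drawn from these values. Both floors, no level filter, both other variance models, the set block and the other compartment assignment changed no sign. The filter at the 60th percentile or leaving out Acox2 gave 0 members higher at an unadjusted p under 0.05 and a mitochondrial less peroxisomal mean of 0.089. With the Gapdh ratio as a covariate 1 member and 4 of the 114 other pathway genes were lower (2.21% of probe sets). Of those 114 genes 1 was higher (1.39%), and the peroxisomal median was 0.062. With the set block 8 members and 21 other genes were lower (12.1% of probe sets), and 7 other genes were higher (7.40%). Set 1 alone had 2 members higher (2.65% of probe sets) and 16 other genes lower (8.88%). Without overlap it had 1 member higher (4.68%), which was Acox2, and 5 lower (13.2%). Acox2 was also 1 of the 2 higher, so those higher counts support nothing. Set 2 alone had 5 members higher (12.8%) and 8 lower (11.7%), and 5 higher (15.2%) and 9 lower (14.4%) without overlap. Of the other genes 11 were higher (12.8%) and 18 lower (11.7%) in set 2. The fits without Acox2 and without the 3 deficient arrays of set 2 were added after seeing the data. In the latter 1 member was lower without overlap (1.51%) and 5 other genes were lower (2.76%).

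Signs turned mostly in members near 0. Median centring gave 0.015 for Etfdh and 0.0043 for Ehhadh. Quantile normalization gave -0.025 for Fabp3, -0.026 for Hadh, -0.032 for Etfb, 0.00623 for Etfdh and -0.0031 for Cat. Array weights gave -0.0025 for Fabp3, -0.00546 for Eci2, -0.00891 for Etfb, 0.0078 for Etfdh and 0.059 for Ehhadh. The Gapdh covariate gave -0.16 for Fabp3, -0.14 for Eci1, -0.071 for Eci2, -0.095 for Decr1, 0.062 for Decr2, -0.055 for Etfb, -0.29 for Acot2 and 0.086 for Ehhadh. Set 1 alone gave -0.13 for Fabp3, -0.073 for Acsl1, -0.054 for Acaa2, -0.035 for Eci2, 0.016 for Ech1, -0.023 for Etfa, -0.082 for Etfb, 0.019 for Etfdh, -0.15 for Acot1 and Acot2 and 0.31 for Ehhadh. Set 2 alone gave -0.037 for Cd36, -0.10 for Hadh and 0.066 for Decr2. The mean of a member's probe sets gave 0.0023 for Cpt1a, -0.0091 for Acot2 and 0.12 for Pex11a. Leaving out the 3 deficient arrays of set 2 removes that set from 1 genotype, so members ordered by set move by construction, and these values say nothing about stability. They were -0.24 for Fabp3, 0.069 for Crat, 0.058 for Acads, 0.061 for Hadha, -0.040 for Acaa2, -0.21 for Eci1, -0.070 for Eci2, -0.13 for Decr1, 0.077 for Decr2, -0.089 for Etfb, -0.43 for Acot2, 0.17 for Ehhadh, 0.014 for Hsd17b4 and 0.042 for Abcd3, where set 1 alone gave -0.13 for Crat, -0.18 for Acads, -0.024 for Hadha, -0.10 for Hsd17b4 and -0.21 for Abcd3. The cause of the other changes was not tested.

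With 1 array left out there were 1 to 2 members higher (2% to 4.87% of probe sets), with Acox2 among them each time. Lower were 1 (without wild-type replicate 6, with 2.88% of probe sets) to 8 (without deficient replicate 9, with 7.50% of probe sets). Without overlap 0 to 1 were higher (0.193% to 0.365% of probe sets), the 1 being Acox2 without wild-type replicate 8. Acox2 was tested only because of its signal in the deficient grafts, so these higher counts support nothing. Of the other genes 1 to 4 were higher (2% to 4.87%) and 4 to 13 lower (2.56% to 7.5%). Ranges that crossed 0 were -0.030 to 0.16 for Cd36, -0.047 to 0.099 for Fabp3, -0.053 to 0.044 for Hadh, -0.075 to 0.18 for Eci1, -0.020 to 0.036 for Eci2, -0.10 to 0.010 for Decr2, -0.024 to 0.026 for Etfb, -0.076 to 0.028 for Etfdh, -0.018 to 0.22 for Acot2 and -0.10 to 0.052 for Ehhadh. No paired analysis was possible because the genotypes share only replicate number 9. The dim members Ppara and Acox3 had values at or under the floor, in 7 and 2 arrays. Acox2 had 0 such arrays and was limited by the level filter.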
